A study of Mus musculus with 12 samples.

Results

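The mouse genome holds many copies of ribosomal protein genes, and the 300 that carry a name of their own were measured here in RNA-seq of 6 numbered mice. A gene was taken as a member when its GENCODE M21 symbol began with Rpl or Rps and ended in -ps, with or without a number, which gave 300 of the 55180 genes listed. Of these, 189 were named after proteins of the large ribosomal subunit (Rpl) and 111 after proteins of the small subunit (Rps). The parent of each is the gene named before -ps. There were 62 parents, of which 61 had values, and Rpl48 was not in the annotation used. The study asked what the RNA-binding protein Larp1 does in the mouse brain. It compared cortex of Larp1 WT mice, which as controls also carry Nestin-Cre, with that of Larp1 cKO mice, in which Nestin-Cre acts on floxed Larp1, a driver active in the early progenitors of neurons and of some glia. The labels describe 12 samples, 6 of each genotype in 3 numbered replicates of 2 parts, all cortex, and the methods name male mice and the posterior cortex, while the labels and methods give no age for these libraries. The 6 mouse numbers of the files could not be matched to a genotype, so each value below is given per mouse or as a range and median over all 6, and Larp1 WT and Larp1 cKO are not compared.

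Cytosolic ribosomes are built from a set of ribosomal proteins and ribosomal RNAs. The mRNAs of the ribosomal proteins start with a terminal oligopyrimidine (TOP) motif, which Larp1 binds together with the cap, and most of them are short and abundant. Such mRNAs are often reverse transcribed by LINE-1 enzymes and inserted back into the genome. The copies, called processed pseudogenes, lack the introns of the parent, sit anywhere in the genome and usually lack the promoter. Over time they gather mutations, so that a young copy can be the same as the parent's mRNA over its whole length while an old copy has lost the reading frame. A sequencing read from an unchanged stretch could come from either place.

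The members had the form of such copies. The annotation gave 287 as processed pseudogenes, 7 as transcribed processed pseudogenes and 6 as protein-coding genes (Rpl10-ps3, Rpl36-ps4, Rpl36a-ps1, Rpl9-ps1, Rpl9-ps6 and Rps12-ps3). A single exon was annotated for 293 of the 300, while their parents had a median of 6 exons (3 to 10). They lay on 20 chromosomes, and X held the most, with 35. When each was aligned on both strands to the mRNAs of the 60 parents with a coding transcript, 294 of the 298 members whose own parent was among these were most like it in the same orientation. For the 291 that aligned over at least 50% of the parent's coding sequence, identity to the parent ran from 77.1% to 100%, with a median of 97.0%, and the number of mismatches from 0 to 123, with a median of 14.

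Stretches of 60 coding bases are shown for 4 members, from one without a difference to its parent to one with 17. Each is the stretch without a gap that differs most from the parent, so it can overstate how much the whole copy differs. They are written 5′ to 3′ from the GENCODE M21 transcripts (GRCm38), in lower case, and capitals mark the bases at which copy and parent differ. Rps23-ps1, the member with the highest level, lies in a single exon on the plus strand of chromosome 3, and its stretch at chr3:37714740-37714799 covers codons 1 to 20 of Rps23 with 0 differences.
Rps23-ps1: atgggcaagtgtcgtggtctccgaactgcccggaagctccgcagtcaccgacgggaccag
Rps23: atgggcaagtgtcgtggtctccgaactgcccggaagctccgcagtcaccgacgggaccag
Rpl19-ps11, on the plus strand of chromosome 8, has 1 mismatch to its parent over the whole alignment, and the stretch at chr8:19493095-19493154 holds it, in codons 54 to 73 of Rpl19.
Rpl19-ps11: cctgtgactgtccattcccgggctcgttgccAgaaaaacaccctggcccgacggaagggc
Rpl19: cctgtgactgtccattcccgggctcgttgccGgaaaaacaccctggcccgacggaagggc
Rps19-ps3, on the minus strand of chromosome 4, is the least parent-like of the copies with steady counts, and the stretch at chr4:147821804-147821863 has 5 differences in codons 118 to 137 of Rps19.
Rps19-ps3: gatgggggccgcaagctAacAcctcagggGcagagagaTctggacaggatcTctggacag
Rps19: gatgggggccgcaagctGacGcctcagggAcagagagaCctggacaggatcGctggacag
Rpl36-ps7, on the plus strand of chromosome 3 within an intron of Spag17, was listed at 0 in all 6 libraries. Over its whole alignment of 315 bases it has 49 mismatches and 84.4% identity to Rpl36. The stretch at chr3:100008495-100008554 has 17 differences in codons 46 to 65 of Rpl36.
Rpl36-ps7: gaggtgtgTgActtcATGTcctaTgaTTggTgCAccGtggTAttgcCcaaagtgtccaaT
Rpl36: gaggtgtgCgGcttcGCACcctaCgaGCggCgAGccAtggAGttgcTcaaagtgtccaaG

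The libraries held between 34689262 and 44463362 expected counts, the reads that RSEM, the authors' quantifier, assigned to transcripts, with reads that match several transcripts divided among them. Levels are in TPM, the share of transcripts after scaling for length, set to the same total in every library. The cortical markers Snap25, a protein of synaptic vesicle release, and Slc17a7, the vesicular glutamate transporter of cortical excitatory neurons, ran from 715 to 1000 and from 347 to 492 TPM, while Alb of liver and Myh6 of heart stood at 0 to 0.03 and 0 to 0.13 TPM. Every pair of libraries differed by more than sampling noise. In these bulk libraries, fewer cells of a type and less RNA per cell cannot be told apart. Since no source states which libraries come from separate mice of 1 genotype, the spread between them mixes genotype, animal and technical spread.

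Together the 300 pseudogenes made up a very small share of the RNA. Their summed level was 199.7 TPM in mouse 678, 165.7 in mouse 687, 81.55 in mouse 688, 87.11 in mouse 698, 166.7 in mouse 700 and 86.58 in mouse 703. As a share of all TPM this was 0.00816% to 0.01997%, with a median of 0.0126%, and the highest library was 2.45 times the lowest. The 61 parents summed to 11000 TPM in mouse 678, 10165 in mouse 687, 4559.8 in mouse 688, 4736.5 in mouse 698, 9578 in mouse 700 and 5431.5 in mouse 703, a ratio of 2.41. For both sums mouse 678 was highest and mouse 688 lowest, and mice 678, 687 and 700 lay above mice 688, 698 and 703. Set against the parents in the same library, the pseudogenes varied much less, at 1.82%, 1.63%, 1.79%, 1.84%, 1.74% and 1.59% of the parents' summed TPM in mice 678, 687, 688, 698, 700 and 703, so that the highest was 1.15 times the lowest. The sums of other pseudogenes had a smaller range over the libraries. The 1256 other genes with a -ps symbol summed to between 0.0245% and 0.0317% of TPM, a ratio of 1.30, and the 9651 other processed pseudogenes to between 0.0914% and 0.114%, a ratio of 1.24.

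**Figure D1:**
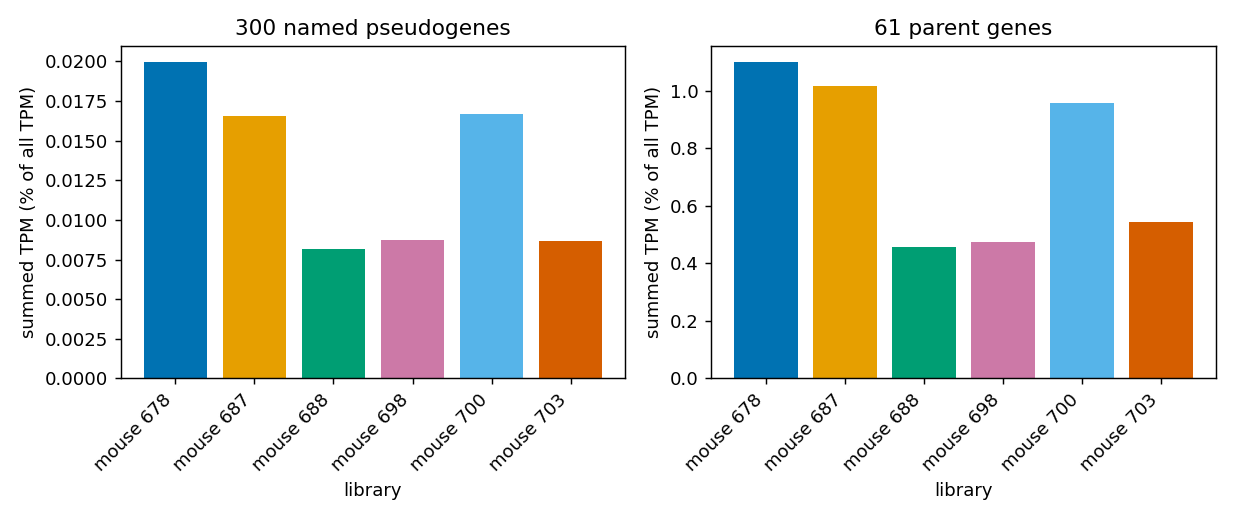
Summed TPM of the 300 named pseudogenes (left) and of their 61 parents (right) as a percent of all TPM, 1 bar for each of the 6 libraries. Each vertical axis starts at 0 and the scales differ, and in both panels mouse 678 is highest and mouse 688 lowest, with ratios of 2.45 and 2.41.

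Most members gave no or few counts. Of the 300, 158 were listed at 0 in all 6 libraries, 142 were above 0 in at least 1 and 48 were above 0 in all 6. All 6 libraries reached 10 counts for 22 members (7.33%), 11 Rpl and 11 Rps, each a copy of a different parent. This compares with 52 of the 1256 other -ps genes (4.14%), 181 of the 9651 other processed pseudogenes (1.88%) and 27.2% of all genes. Just inside this limit of 10 were Rpl38-ps2 and Rps16-ps2, with lowest counts of 10.9 and 11.1, and just outside it Rps19-ps6 and Rpl17-ps3, with 7.11 and 7.08. The 22 held 81.6% to 84.9% of all member counts in each library. The number of members above 0 was 98, 85, 78, 73, 90 and 69 in mice 678, 687, 688, 698, 700 and 703.

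The number of copies differed widely between parents, with a median of 2.5. Rpl31 and Rps12 each had 24 named copies, the most of any parent, and 1 of each reached the limit. Rpl21 had 15 copies, with none that reached it, while 19 parents had 1 copy. In 4 groups, 14 members in all had identical transcript sequences, and within each group the counts were equal to within 0.02 in every library. The 4 copies Rpl35a-ps2, Rpl35a-ps3, Rpl35a-ps4 and Rpl35a-ps6 had up to 10.79 counts each, and the 5 copies Rps12-ps11 to Rps12-ps15 up to 0.2 each.

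Counts lay mostly in members whose sequence is shared with other genes. For every member, each run of 50 bases (a window) was looked up in the transcripts of all other genes. A median of 39.5% of a member's windows were found in another gene, and 17.5% in the parent. Among the 22 members that reached 10 counts in every library these medians were 98.8% and 91.1%, and among the 158 members at 0 they were 9.55% and 1.21%. All windows of 33 members were found in another gene, and 26 of the 33 had counts, of which 10 reached 10 in every library. Of 91 members with at least 50% but not all of their windows elsewhere, 11 did so. Of 144 members with fewer than 50% of their windows elsewhere but at least 1, only Rps19-ps3 did, and 98 were at 0. Of the 32 members without any shared window, 31 were at 0 and Rpl13-ps1 was not.

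**Figure D2:**
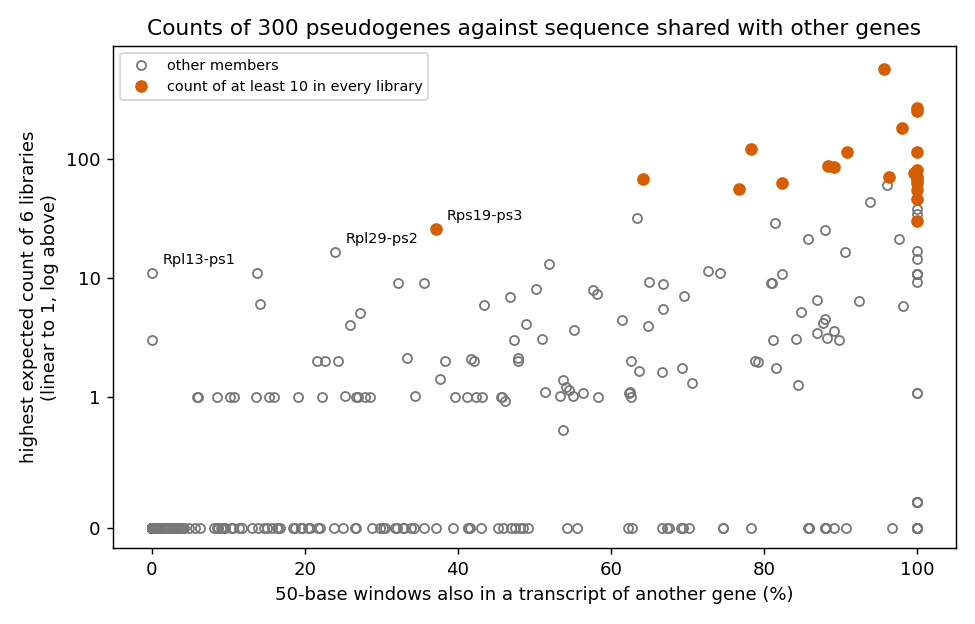
Highest expected count over the 6 libraries (vertical axis, linear up to 1 and logarithmic above) against the percent of 50-base windows that are also in a transcript of another gene, 1 point for each of the 300 members. Filled points are the 22 members that reached 10 counts in each library, of which 21 lie above 50% and Rps19-ps3 lies at 37.1%.

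Mismatches and reading frames differed between these members too. The 22 had a median of 1 mismatch to the parent (0 to 14), and the 158 at 0 a median of 30 (2 to 123). Of the 22, 10 had no mismatch or gap in their alignment to the parent, against 15 of all 300. The longest open reading frame was at least 95% as long as that of the parent in 21 of the 22, with Rps19-ps3 at 23.4% as the exception, and in 54 of the 158. The counts of the 22 were also fractional. An expected count is a whole number when each of its reads is given to 1 transcript alone, and of the 132 values of the 22 members (6 libraries each), 97.7% were further than 0.011 from a whole number. The share was 84.2% for the parents, 16.4% for all 15013 genes that reached 10 counts in each of the 6 libraries and 13.9% for the 5732 of these with median counts in the range of the 22. Of the 22, 19 were fractional in 6 of 6 libraries.

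The most abundant member was Rps23-ps1 (ENSMUSG00000100755), a copy of Rps23, which encodes a small-subunit protein of the decoding centre. It spans chr3:37714740-37715164 on the plus strand, and its exon overlaps one of Gm5148 on the opposite strand, which stood at 1.15 to 1.47 TPM. Rps23-ps1 stood at 23.47 TPM in mouse 678, 21.67 in mouse 687, 5.54 in mouse 688, 7.36 in mouse 698, 22.67 in mouse 700 and 8.16 in mouse 703. Mice 678, 687 and 700 were high and close together, and mouse 688 was lowest. Its parent Rps23 stood at 176.1, 154.9, 50.35, 58.44, 160.6 and 53.95 TPM in the same order, with the same 3 mice high. Rps23-ps1 was thus at 13.3%, 14.0%, 11.0%, 12.6%, 14.1% and 15.1% of Rps23, and it was the only member whose median TPM passed 10% of the parent's. Its highest and lowest libraries differed 4.24-fold, beyond counting error, as 265 counts in mouse 678 had a 95% exact Poisson interval of 5.74 to 7.32 CPM (counts scaled to library size) and 59 counts in mouse 688 one of 1.06 to 1.80. All 50-base windows of Rps23-ps1 are also in Rps23, and all 6 of its counts were fractional. Such intervals cover counting error only, and not the error of dividing shared reads.

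Rpl38-ps2, a copy of the gene for the large-subunit protein Rpl38 on chr6:140746960-140747172, was second by median TPM. It stood at 20.11, 14.31, 8.54, 9.09, 14.47 and 5.35 TPM in mice 678, 687, 688, 698, 700 and 703. Mouse 703 was lowest here, and not mouse 688 as for Rps23-ps1. This order rests on few counts, 10.9 in mouse 703 and 20.42 in mouse 688, and was not tested. At only 213 bases it had few counts for its TPM, from 10.9 to 54.94, and its 3.76-fold range was larger than the 2.36-fold range of Rpl38.

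Rpl3-ps1, on chrX:13202571-13203780, copies Rpl3, a large-subunit protein near the peptidyl transferase centre. It had 13.22, 10.90, 5.48, 5.47, 10.56 and 6.23 TPM in the same order of mice. As it is 1210 bases long, it had the most counts of all members, 197.8 to 579.6, and it has 2 mismatches to its parent. Its range of 2.42-fold was close to the 2.56-fold range of Rpl3, and it was at 5.40% to 6.37% of Rpl3 in the 6 libraries.

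Rpl31-ps8 (chr15:90764279-90764656), a copy of the gene for a protein at the exit of the nascent peptide tunnel, had 11.08, 9.53, 3.55, 5.63, 11.78 and 4.97 TPM. Rps6-ps4 (chr2:75191073-75191822) copies Rps6, the small-subunit protein phosphorylated by S6 kinase downstream of mTORC1, and had 10, 9.37, 4.30, 4.30, 9.59 and 5.78 TPM. Both are identical to the parent over their whole length. In both, mice 678, 687 and 700 were above the other 3, and Rps6-ps4 was at 5.63% to 6.91% of Rps6. Rpl17-ps8, on chrX:96484859-96485479 within an intron of Heph on the same strand, had 9.35, 8.60, 3.77, 3.27, 7.93 and 3.64 TPM, while Heph itself stood at 0.82 to 1.07 TPM. Rpl17-ps8 has 2 mismatches to Rpl17.

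Rps26-ps1 and Rpl19-ps11 came next in level and had smaller ranges. Rps26-ps1, a copy of Rps26, whose product sits at the mRNA exit of the small subunit, had 5.61, 6.15, 3.33, 4.43, 6.13 and 3.12 TPM, a 1.97-fold range. It is annotated as a transcribed pseudogene, lies at chr8:107439131-107439579 in an intron of Wwp2 on the opposite strand, and 64.2% of its windows are in another gene. Rpl19-ps11 (chr8:19492936-19493526), with its single mismatch shown above, had 6.26, 4.82, 3.40, 3.87, 5.94 and 3.68 TPM, a 1.84-fold range. It shares an exon with Gm27288 on the same strand, which was at 0 TPM in all 6 libraries. Their parents varied as little, 1.94-fold for Rps26 and 1.91-fold for Rpl19.

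The last of the 10 most abundant were Rpl14-ps1 and Rps27a-ps2. Rpl14-ps1, in an intron of Trpm4 on the opposite strand, had 5.87, 4.34, 3.31, 1.86, 4.14 and 3.11 TPM, and was lowest in mouse 698. Rps27a-ps2 copies Rps27a, which encodes ubiquitin fused to a small-subunit protein, and had 5.92, 3.93, 1.54, 1.92, 4.03 and 3.19 TPM, lowest in mouse 688. The other 12 had median TPM from 1.49 (Rpsa-ps10) to 3.31 (Rpl28-ps1).

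**Figure D3:**
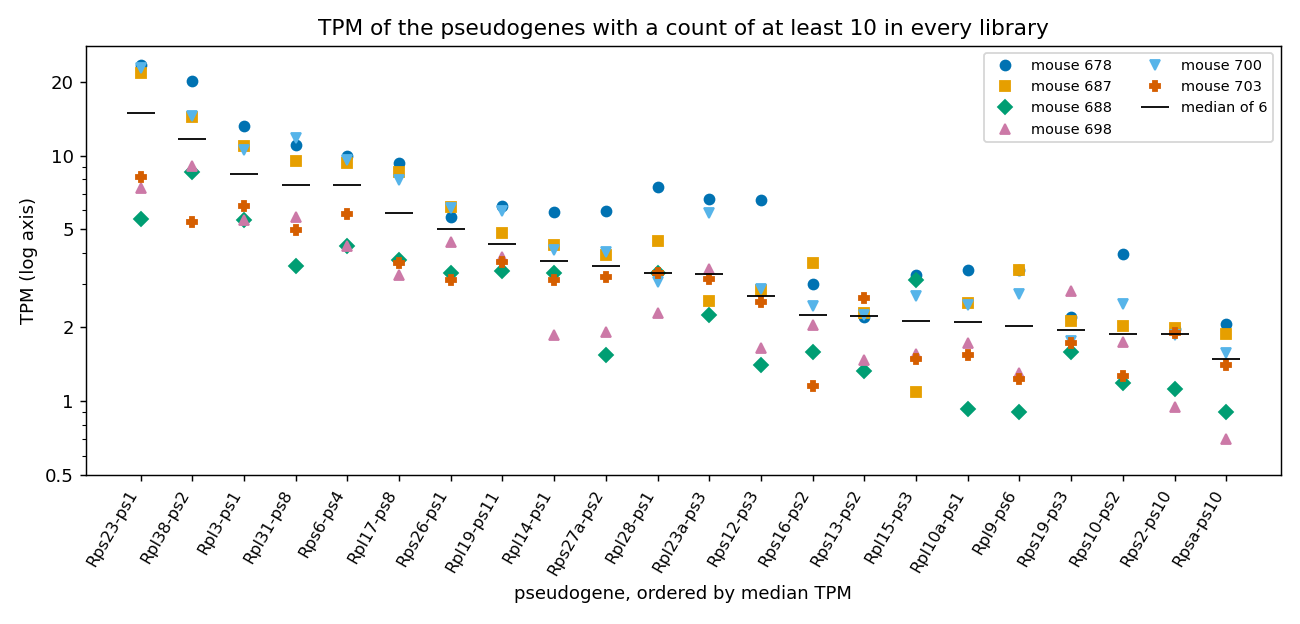
TPM (logarithmic axis) of the 22 pseudogenes that reached 10 counts in each of the 6 libraries, ordered by median TPM, with 1 point per mouse and a bar at the median of 6. Mouse 678 is highest for 16 of the 22 and mouse 688 lowest for 12, while Rps19-ps3 is highest in mouse 698.

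The range over the libraries was set beside that of the parents for the 22. The ratio of highest to lowest TPM had a median of 3.07 (1.77 to 4.72), against 2.34 for their parents, and was above the parent's in 17 of the 22. The 22 had median counts of 23 to 369, and the ratio includes counting error. Mouse 678 was highest for 16 of them, and 18 had their highest value in the same mouse as the parent. The highest library was at least 2 times the lowest for 18 of the 22 (81.8%). Of all 15013 genes that reached 10 counts in each of the 6 libraries, 15.2% had such a ratio, and of the 5732 whose median counts lay in the range of the 22 members, 26.4% did. The parents had such a ratio in 77.0% of cases. The exact Poisson intervals of highest and lowest library were apart for 20 of the 22, with Rps13-ps2 and Rps19-ps3 as the exceptions. These libraries were picked as the extremes of 6, and the share of all genes with intervals apart is not given here. The count of 20 is therefore not a trait particular to the members. By excess variability, the SD of log2(CPM + 1) above that of genes of like mean, 10 of the 22 and 58 of the 61 parents were among the most variable 5% of genes. That count fell to 6 without mouse 678 and rose to 14 without mouse 703.

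**Figure D4:**
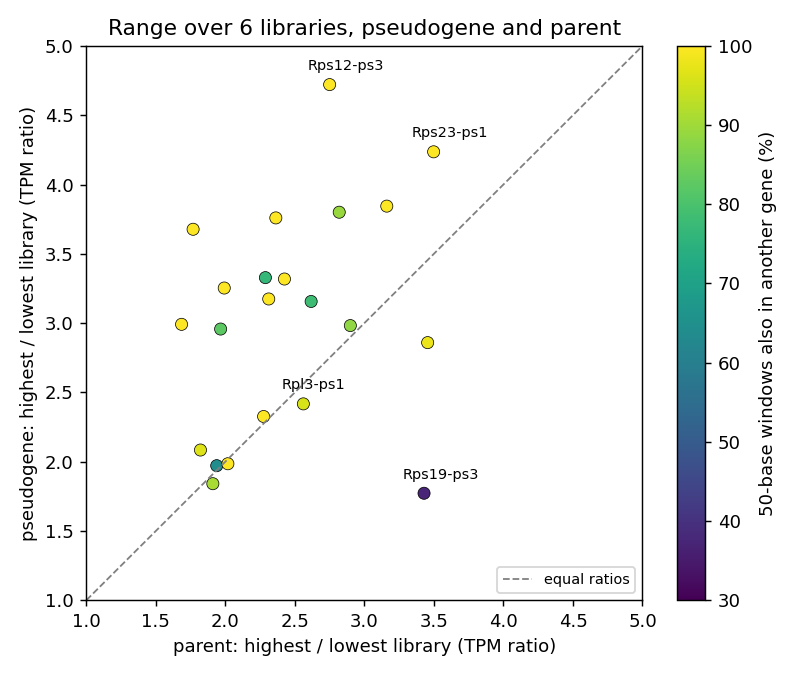
Ratio of the highest to the lowest of 6 libraries (TPM) for each of the 22 pseudogenes (vertical axis) against that of its parent (horizontal axis), coloured by the percent of 50-base windows shared with another gene. The dashed line marks equal ratios, 17 of 22 points lie above it, and Rps19-ps3, with the fewest shared windows, lies farthest below it at 1.77 against 3.43.

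The largest ratio was that of Rps12-ps3 (chr19:59322290-59322783), which is annotated as protein-coding and is identical to the coding sequence of Rps12. It had 6.61, 2.83, 1.40, 1.65, 2.87 and 2.54 TPM in mice 678, 687, 688, 698, 700 and 703. Mouse 678 stood apart, at more than 2 times the next library, while Rps12 did not have such a gap, at 179.1, 159.6, 65.1, 74.64, 157.5 and 71.88 TPM. Rpl9-ps6 (chr19:32465865-32466578), also annotated as protein-coding, has 1 mismatch to Rpl9 and had 3.42, 3.42, 0.90, 1.30, 2.74 and 1.23 TPM, a 3.80-fold range. At the other end, Rps13-ps2, identical to the coding sequence of the small-subunit gene Rps13, had 2.19, 2.28, 1.32, 1.47, 2.24 and 2.62 TPM. It was highest in mouse 703, in which Rps13 itself, at 65.23 TPM, was below its level of 93.08 to 112 TPM in mice 678, 687 and 700.

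Some copies with no mismatch to the parent were uneven over the libraries. Rpl15-ps3, identical to the coding sequence of Rpl15, had 3.26, 1.09, 3.10, 1.56, 2.67 and 1.48 TPM. The order of the mice differed from that of Rpl15, whose levels were 116, 107, 68.84, 70.57, 99.8 and 90.2 TPM, and Rpl15-ps3 moved between 1.02% and 4.50% of it. Rpl27-ps3, identical to the coding sequence of Rpl27, was listed at 0 in mice 700 and 703 and stood at 3.10, 3.35, 2.35 and 2.09 TPM in mice 678, 687, 688 and 698. Rpl10-ps3, with 96.1% of its windows in Rpl10, had 2.27, 1.92, 0.53, 0, 2.20 and 0.67 TPM, so that it was listed at 0 in mouse 698, while Rpl10 stood at 153.6, 153.5, 61.63, 67.88, 148 and 72 TPM. These 3 were chosen after their values were seen.

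The one of the 22 with the fewest windows in another gene did not have the order of its parent. Rps19-ps3 (chr4:147821777-147822202, minus strand, no other gene over it) has 14 mismatches and 1 gap to Rps19, a small-subunit gene mutated in Diamond-Blackfan anaemia, and 37.1% of its windows are in another gene. It had 2.21, 2.12, 1.58, 2.80, 1.76 and 1.72 TPM in mice 678, 687, 688, 698, 700 and 703. The highest value was in mouse 698, where Rps19 was lowest, as Rps19 stood at 155, 127.8, 47.5, 45.19, 134.5 and 52.63 TPM. Rps19-ps3 was thus at 1.43%, 1.66%, 3.33%, 6.2%, 1.31% and 3.27% of its parent. The counts behind it were small, 15.69 to 25.79. The 95% exact Poisson intervals of its highest and lowest library, 0.490 to 1.10 and 0.234 to 0.644 CPM, overlapped. Such overlap is not a test, and a difference between libraries was not tested.

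**Figure D5:**
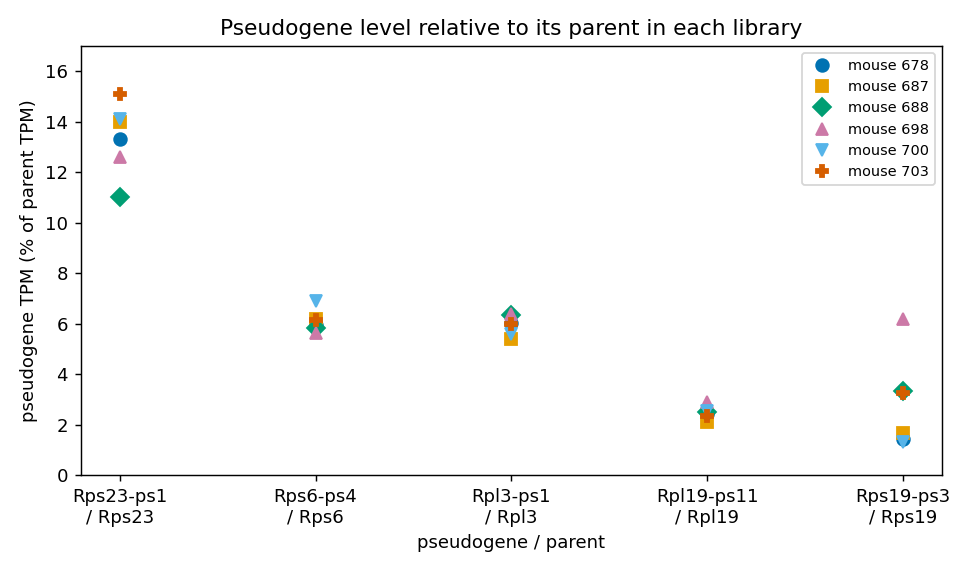
TPM of 5 pseudogenes as a percent of the parent's TPM, 1 point per mouse, on an axis from 0. Rps23-ps1 lies at 11.0% to 15.1% of Rps23, Rps6-ps4 at 5.63% to 6.91% of Rps6 and Rpl3-ps1 at 5.40% to 6.37% of Rpl3, while Rps19-ps3 spreads from 1.31% to 6.2% of Rps19.

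The members were also summed by how much of their sequence is shared. The 33 whose windows were all in other genes summed to 106.1, 85.35, 40.41, 43.7, 83.79 and 41.3 TPM in mice 678, 687, 688, 698, 700 and 703, a ratio of 2.62. The other members summed to 93.67, 80.36, 41.14, 43.41, 82.92 and 45.28 TPM, a ratio of 2.28. The 176 with fewer than 50% of their windows elsewhere summed to 6.99, 6.94, 3.85, 5.69, 6.04 and 4.67 TPM, a ratio of 1.82, on 58.92 to 108.6 counts per library. Without Rps19-ps3, left out after its values were seen, these summed to 4.78, 4.82, 2.27, 2.89, 4.28 and 2.95 TPM, a ratio of 2.12. Between these sums the difference in ratio was not tested.

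Of the 176, 3 more members with counts in every library are given here, chosen after their values were seen. Rpl29-ps2 (chr13:4609334-4615025, plus strand), annotated as transcribed with up to 2 exons, has 23.9% of its windows in another gene. Its counts were 16.58, 10.36, 12.38, 11.32, 3.69 and 13.44, lowest in mouse 700. Rpl29 stood at 160.2, 147.6, 93.68, 97.28, 143.8 and 121.6 TPM, lowest in mouse 688. The units differ, as counts are not scaled to library size. The low in mouse 700 is a single small count, and the contrast was not tested. Rps27a-ps1 (chr1:52522239-52522701), with 13.8% of its windows in another gene, had 11, 6, 5, 8, 9.14 and 5 counts. Rpl13-ps1 (chr11:85111126-85111793, minus strand) lies in an intron of Usp32 on the same strand, has no window in another gene, and had 5, 5, 7, 2, 11 and 6 counts, all whole numbers. Its transcript is annotated on the strand opposite to its Rpl13-like sequence, and which strand the counted RNA came from is not known here.

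The position of the copies among other genes was mixed. Of the 22, 10 had no other gene over them and 9 lay in introns of genes on the opposite strand. Of all 300, 207 had no other gene over them, 27 lay in introns on the same strand and 60 in introns on the opposite strand. How the authors' counting treated strand is not stated in the sources used here, so reads of such a host gene and of the copy may not be fully separated.

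The genes whose pattern over the 6 libraries was most like that of the 3 most abundant members were ribosomal protein genes for Rps23-ps1 and Rpl3-ps1. For Rpl38-ps2 they were pseudogenes and a processed transcript, and what these pseudogenes copy was not examined. Likeness was the Euclidean distance between centred log2(TPM + 1) values, over 15012 other genes that reached 10 counts in each of the 6 libraries. For Rps23-ps1 the nearest were Rps15 (0.191), Rpl26 (0.262) and Rps21 (0.270), and its parent Rps23 came in place 4 (0.285). For Rpl3-ps1 they were Rps4x (0.113), Rpl32 (0.133) and Rpl23 (0.137), with Rpl3 in place 51 (0.323). The 1 added to TPM narrows the range of a copy at low TPM more than that of its parent. The places of the parents therefore depend on that setting, and distances without it were not computed. For Rpl38-ps2 they were the pseudogenes Gm9843 (0.353) and Gm15500 (0.385) and the processed transcript 2410006H16Rik (0.511), with Rpl38 in place 24 (0.687).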

How the data were processed

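RNA-seq libraries of rRNA-depleted RNA were read from the tables of 6 numbered mice. Reads had been trimmed (cutadapt), aligned to mm10 (STAR) and quantified (RSEM) by the authors, as the methods and processing notes say without versions. The methods state gene-level values with UCSC annotation, whereas the tables list Ensembl transcripts. The authors deposited unnormalized expected counts for each transcript, and TPM for each transcript, which were scaled for length over all listed transcripts. RSEM divides a read that matches several transcripts among them, so values of a near-identical copy and its parent depend on that division. The 12 value columns used hold these 2 units, and 18 others were not used. No table names a genotype or tissue, and cortex is inferred from the labels. The labels name TRIzol and a directional kit, which the paper's list of materials also holds. Its section on RNA-seq libraries names RNEasy columns and a library kit that is not called directional.

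Transcript identifiers without version were matched to GENCODE M21 (GRCm38), and 910 did not match, with 0.246% to 0.272% of counts per library. Both units were summed per gene without rounding, except for Poisson intervals. Copies and parents were compared on GENCODE M21 transcripts by shared 50-base windows and by local alignment (biopython 1.88, match 2, mismatch -3, gap opening -6 and extension -1). The parent transcript was the isoform with a consensus coding sequence and the highest median TPM. Of the 309 member transcripts, 307 had equal lengths in the tables and the annotation. Excess variability used TMM factors from edgeR 4.0.16 in R 4.3.3 and the SD of log2(CPM + 1) minus the running median over 501 genes of like mean, and was tested on simulated data. Intervals are exact Poisson at the 95% level and cover counting error only. Dixon's ratio, against its 95% limit for 6 values, marked a library apart from the others.

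No test between groups was run, as no library has a group. The rule for genes to name took the 10 members with the highest median TPM, and of those that reached 10 counts in each library the 5 largest and 5 smallest ratios of highest to lowest library and the 5 lowest shares of windows in the parent, plus members above 10% of the parent, the parents, and the 3 genes nearest in pattern to the top 3. Members and lists were chosen with earlier results of these data known. Alternatives were other count limits, units, denominators, window lengths of 75 and 100 bases, DESeq2 1.42.0 size factors, other pseudocounts and leaving out each mouse. The parent match of 1 member is not reported here.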

Additional observations from a re-analysis of the deposited data

Results flagged for a closer look

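A library stood far from the other 5 in 2 of the 65 sets of 6 values examined, by the gap to its neighbour over the whole range (Dixon's ratio, past its 95% limit for 6 values), and chance gives about 1 in 20 such sets. For Rps12-ps3 the ratio was 0.718, with 6.61 TPM in mouse 678 and 1.40 to 2.87 TPM in the other mice. For Rps13-ps2 as a percent of Rps13 it was 0.694, with 4.02% in mouse 703 and 1.96%, 2.26%, 2.38%, 2.59% and 2.41% in mice 678, 687, 688, 698 and 700. Both copies share all of their 50-base windows with another gene and rest on 13.35 to 66.8 and 14.89 to 29.99 expected counts per library.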

How the results depend on the processing

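The number of detected members depended on the limit, at 45 where 1 library had to reach 10 counts, 137 where 1 library had to reach 1 count and 42 with at least 0.1 TPM in every library, against 22, and was 22 to 23 when each mouse was left out. The median summed share of 0.0126% of TPM became 0.00460% of expected counts and 0.0508% of the TPM of nuclear protein-coding genes, and was 0.00871% to 0.0166% when each mouse was left out. Its ratio of highest to lowest library stayed within 2.04 to 2.62 under 8 alternatives, and the members' summed percent of all parents within 1.23% to 1.79%. That percent depended on the parents in the denominator. Set against their own parents only, the 22 detected members stood at 3.356% to 3.955%, with a median of 3.667%. The 10 of 22 members tested that were among the most variable genes became 16 of 137 tested without a filter on low counts, and of 22 tested 16 with log2(CPM + 0.25), 18 with log2(TPM + 1), 10 with DESeq2 size factors and 6 to 14 of 22 or 23 tested when each mouse was left out. The median share of windows found in the parent, 17.5% over all members, became 7.31% with windows of 75 bases and 0.295% with windows of 100 bases, and 39.5% in any other gene, while for the 22 detected members it stayed at 83.0% to 98.8%. No paired analysis was possible because the libraries carry mouse numbers that match no replicate number in the labels. Depth limits the members with little shared sequence, which had 58.92 to 108.6 counts per library in all.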

Other observations

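For 4 of the 298 members whose parent's mRNA was compared, the best alignment to the 60 parent mRNAs was not to the named parent in the same orientation. Among these, Rpl13-ps1 aligned best to Rpl13 in the opposite orientation, and Rpl17-ps11 and Rps7-ps2 had no long alignment to any of them.

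The summed TPM of the 300 members fell into 2 separate clusters of libraries, with 199.7, 165.7 and 166.7 TPM in mice 678, 687 and 700 and 81.55, 87.11 and 86.58 TPM in mice 688, 698 and 703. The summed TPM of the 61 parents fell into the same clusters, with 11000, 10165 and 9578 TPM in the first 3 mice and 4559.8, 4736.5 and 5431.5 TPM in the other 3. These clusters are defined by the values themselves and carry no genotype, and no correlation was computed over them.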
